A study of Mus musculus with 59 samples.

Results

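The genes described are the enzymes that oxidize fatty acids, the enzymes that activate and release fatty acyl chains, the PPAR receptors with a target of theirs, and the enzymes that use ketone bodies. Members were chosen by symbol, as 38 named genes, and each was read from the probe set with the highest mean signal over all arrays. Of the 38, 36 matched a probe set carrying that 1 symbol, among 18194 genes in all, and Acsl1 and Ucp2 are not analysed here.

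Mitochondrial beta-oxidation shortens an acyl chain in repeated rounds. Carnitine palmitoyltransferases carry the chain into the mitochondrion, acyl-CoA dehydrogenases pass electrons to the electron transfer flavoprotein, and a hydratase, a hydroxyacyl-CoA dehydrogenase and a thiolase complete the round. The brain draws mainly on glucose but uses ketone bodies, above all early in life, and its fatty acid oxidation is known mainly from astrocytes and neural progenitors. Valproic acid is a branched short-chain fatty acid that is metabolized in part through these same enzymes.

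RNA from the brain of C57BL/6 mice was measured on 59 Affymetrix Mouse 430 2.0 arrays in 19 groups of 3 or 4. Pregnant dams took an oral dose a day from E12.5 to E14.5, of methylcellulose vehicle at 0.5% (MC), of valproic acid at 300 mg/kg (VPA) or of its amide valpromide at 300 mg/kg (VPM). Embryonic groups of 3 arrays held the telencephalon at E14.5, taken 3 h after the last dose, and the forebrain and the hippocampus at E18.5, each for MC, VPA and VPM. Male offspring aged 12 to 13 weeks gave cortex and hippocampus, 3 arrays for each of MC, VPA, MC with a running wheel in the cage after weaning (MC+RW) and VPA with a running wheel (VPA+RW), and a separate set, 4 arrays each for MC and VPA, gave the P84 hippocampus. The adult offspring were thus exposed only before birth, through the dam.

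Signals below were scaled to a trimmed mean of 500 on each array, and log2 changes were tested with limma and adjusted over all genes tested. The arrays were labelled as biological replicates, but dams and litters were not named, so p-values measure the spread between these samples. Xist was at a female level on 12 of the 27 embryonic arrays and on 0 of the adult ones. The adult tissues separated by their markers: the summed signal of 6 hippocampal markers was 24552 to 26017 in hippocampus and 15219 to 16406 in cortex of MC mice, and that of 5 cortical markers was 3173 to 3921 and 9329.6 to 9854. Summed signals of markers of other cell types are given beside the results.

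The first comparison asked which of these genes changed in the telencephalon during dosing with VPA. At E14.5, 20 of the 33 members tested changed against MC at a limma adjusted p under 0.05 (60.6%), 10 upward and 10 downward. Among all 11068 genes tested, 53.8% changed, 27% upward and 26.8% downward, so the members' share lay near the background. Cpt1a, the carnitine palmitoyltransferase that limits entry of long chains into the mitochondrion, and Acadm, the medium-chain acyl-CoA dehydrogenase, rose most, 2.5-fold and 2.32-fold. Acsl5, an acyl-CoA synthetase, and Bdh1, the mitochondrial enzyme that interconverts the ketone bodies 3-hydroxybutyrate and acetoacetate, fell most, 1.78-fold and 1.64-fold. The median log2 change of the 33 members was 0.10, against 0.00 over all genes tested, and VPA and MC arrays were fully separate in 21 of the 33 and in 60.2% of all genes.

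**Figure D1:**
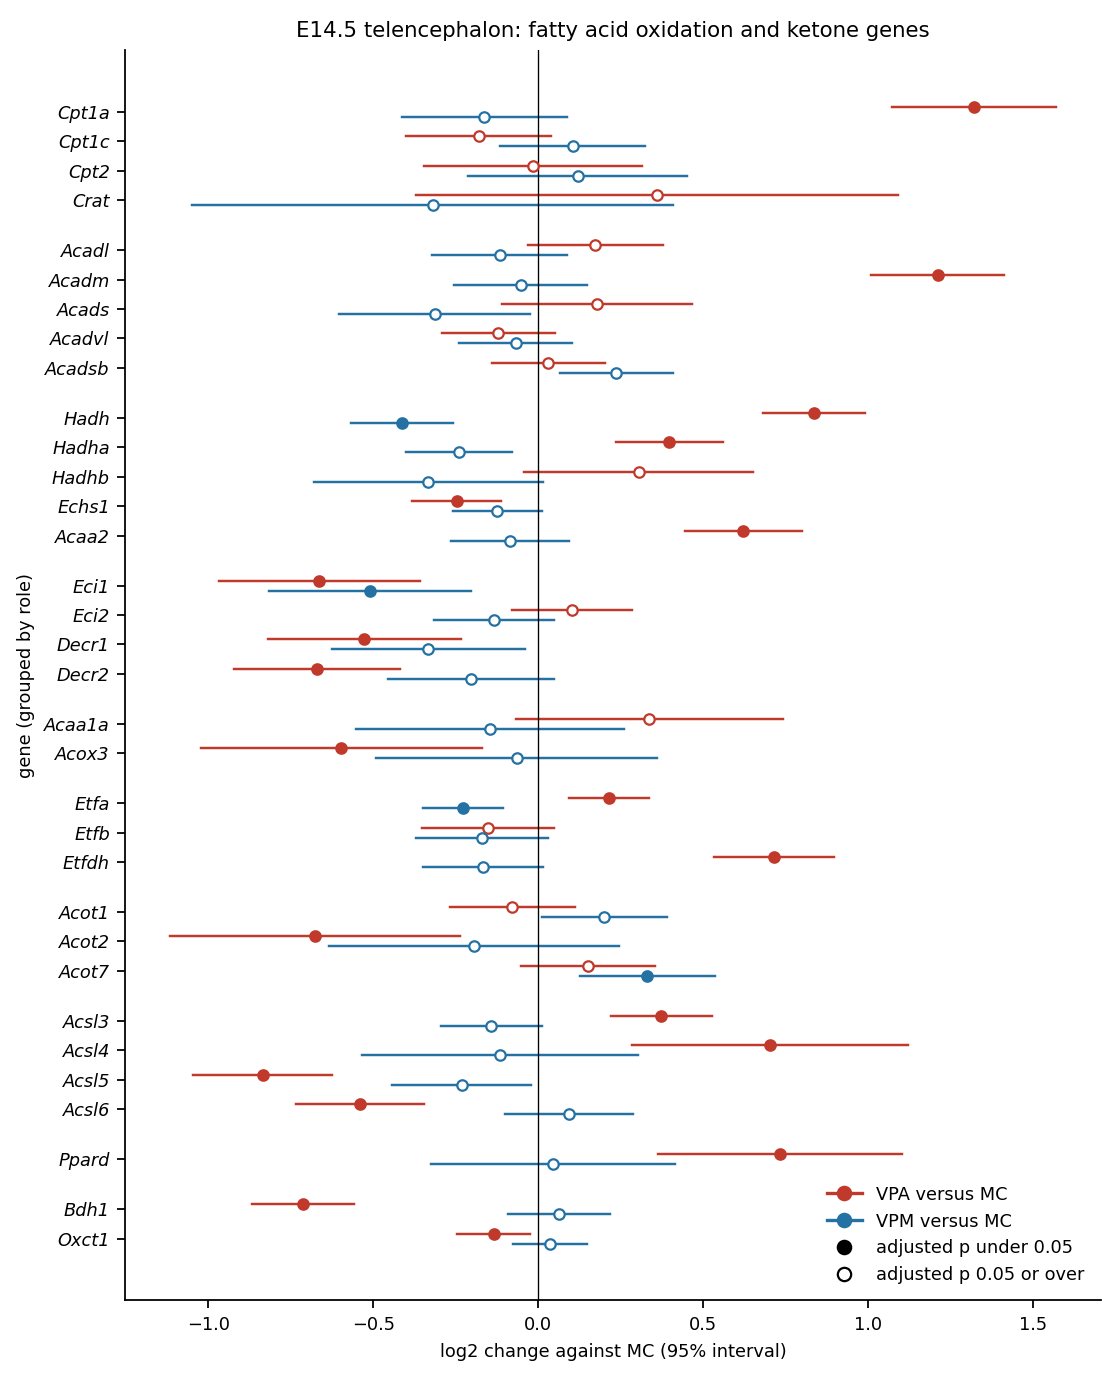
Log2 change against MC in the E14.5 telencephalon for the 33 members tested, grouped by role from the carnitine shuttle at the top to ketone body use at the bottom (VPA in red, VPM in blue, 3 arrays per group, bars are 95% intervals, filled points have an adjusted p under 0.05). Filled red points lie on both sides of 0, from 1.32 for Cpt1a to -0.83 for Acsl5, and 4 blue points are filled.

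Of the 4 carnitine shuttle genes, 1 rose and 3 did not pass (background 27% upward and 26.8% downward). No role was tested as a set. Cpt1a read 578, 839 and 719 on the MC arrays, 1873, 1773 and 1641 on the VPA arrays and 622, 619 and 644 on the VPM arrays. All 3 VPA arrays lay above every MC and VPM array. The log2 change with VPA was 1.32 ± 0.11 (SE, n = 3 each, limma adjusted p = 3.02e-06). The brain form Cpt1c had a log2 change of -0.18 (95% interval -0.40 to 0.04), and Cpt2, which regenerates acyl-CoA inside the mitochondrion, one of -0.02 (-0.35 to 0.32). Crat, carnitine acetyltransferase, spread from 144 to 280.2 between the VPA arrays and its interval ran from -0.37 to 1.09.

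Of the 5 acyl-CoA dehydrogenases, 1 rose and 4 did not pass (background 27% upward and 26.8% downward). Acadm read 1156, 1153 and 1037 on the MC arrays, 2757, 2274 and 2739 on the VPA arrays and 996, 1047 and 1186 on the VPM arrays. The VPA arrays stood apart from the other 6, with a log2 change against MC of 1.21 ± 0.09 (SE, limma adjusted p = 1.24e-06). The enzymes for long, short, very long and branched short chains, Acadl, Acads, Acadvl and Acadsb, had log2 changes between -0.12 and 0.18, and their 95% intervals all lay within a 1.5-fold change in either direction.

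The enzymes that complete the round held 3 rises and 1 fall among 5 (background 27% upward and 26.8% downward). Hadh, the hydroxyacyl-CoA dehydrogenase for medium and short chains, read 2586, 2919 and 2599 with MC, 4612, 4861 and 4974 with VPA and 1855, 2139 and 2096 with VPM. VPA arrays were the highest and VPM arrays the lowest, with no overlap between any pair of groups. Its log2 change with VPA was 0.84 ± 0.07 (SE, limma adjusted p = 2.73e-06). The thiolase Acaa2 read 639.9, 685 and 664 with MC, 972, 1009.8 and 1082 with VPA and 569.6, 639.6 and 669 with VPM, a log2 change of 0.62 ± 0.08 with VPA (SE, limma adjusted p = 6.17e-05). Hadha, the alpha subunit of the trifunctional protein for long chains, rose by 0.40 on the log2 scale, and the hydratase Echs1 fell by 0.25. The beta subunit Hadhb did not pass at 0.31 (95% interval -0.04 to 0.65) on the probe set used, while another of its probe sets gave 0.56 and passed.

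The auxiliary enzymes, which remove double bonds that beta-oxidation cannot pass, held 3 falls among 4 (background 26.8% downward). Decr2, the peroxisomal dienoyl-CoA reductase, read 385, 443 and 382 with MC, 285, 238 and 238 with VPA and 366, 365 and 318 with VPM. Eci1, a mitochondrial enoyl-CoA isomerase, read 555, 618 and 519 with MC, 279, 415 and 387 with VPA and 408, 412 and 367 with VPM. In both genes every VPA array lay below every MC array, by 0.67 ± 0.12 and 0.66 ± 0.14 on the log2 scale (SE, limma adjusted p = 0.000443 and 0.00176). Decr1, the mitochondrial reductase, fell by 0.53, and the isomerase Eci2 had a log2 change of 0.10 that did not pass.

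Among the peroxisomal genes, Acox3, an oxidase of branched-chain acyl-CoA, fell by 0.60 ± 0.20 on the log2 scale (SE, limma adjusted p = 0.022). It read 162, 156 and 150.0 with MC and 73.9, 118 and 125 with VPA, and without VPA replicate 1, the lowest array, the log2 change was -0.36 with an adjusted p of 0.074 (0.059 without MC replicate 1). The thiolase Acaa1a had a log2 change of 0.34 that did not pass (its signal may hold that of the near-identical Acaa1b). Ehhadh, the peroxisomal bifunctional enzyme, lay at 1.68 to 13.1 with MC, under the floor of 32 set for the log2 scale, and was too dim to test.

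Of the genes that pass electrons from the dehydrogenases to the respiratory chain, 2 of 3 rose (background 27% upward). Etfdh, the oxidoreductase that hands them to ubiquinone, read 742, 752 and 782 with MC, 1209, 1298 and 1228 with VPA and 665, 755 and 612 with VPM. The VPA arrays lay above the other 6, a log2 change against MC of 0.71 ± 0.08 (SE, limma adjusted p = 2.44e-05). Over 16 alternative fits this change of Etfdh ran from 0.36 to 0.74 and passed in each. Etfa, a subunit of the flavoprotein, rose by 0.21, and its partner Etfb had a log2 change of -0.15 that did not pass.

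The acyl-CoA synthetases, which attach coenzyme A to free fatty acids, divided by member. Acsl4, which prefers polyunsaturated chains, read 309.9, 195 and 299 with MC, 529.8, 422 and 348 with VPA and 247, 264 and 217 with VPM, a rise of 0.70 ± 0.19 on the log2 scale (SE, limma adjusted p = 0.00847). Acsl5 read 366, 349 and 381 with MC, 199, 206 and 209 with VPA and 319, 311 and 303 with VPM, and the groups did not overlap. Its log2 change was -0.83 ± 0.10 (SE, limma adjusted p = 2.37e-05). Acsl3 rose by 0.37, and Acsl6, the form enriched in brain, fell by 0.54, although its other probe set gave -0.11 and did not pass. Among the thioesterases, which release the chain again, Acot2 read 130.0, 206 and 174 with MC, 105, 127 and 85.6 with VPA and 138, 156 and 145 with VPM. Its fall of 0.68 (limma adjusted p = 0.0137) no longer passed without MC replicate 2 (adjusted p = 0.0616) or without VPA replicate 3 (0.0592), and with the mean over its probe sets it was -0.42. Acot1 and Acot7 did not pass. Acot1 and Acot2 are near-identical copies, and the probe sets may share signal between them.

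Ppard, the PPAR receptor widely expressed in the brain, read 312, 265 and 215 with MC, 448, 452 and 405 with VPA and 241, 348 and 233 with VPM. Every VPA array lay above every MC and VPM array, a log2 change against MC of 0.73 ± 0.17 (SE, limma adjusted p = 0.00322). Over 16 alternative fits this change of Ppard ran from 0.37 to 0.86 and passed in each. Ppara, the receptor that induces oxidation genes in liver, and Pdk4, a PPAR target that restrains glucose oxidation, were too dim to test at E14.5. Pdk4 read 36.2, 35.6 and 41.0 with MC, 94.8, 58.1 and 73.9 with VPA and 35.9, 50.2 and 33.3 with VPM, so that its VPA arrays were the highest of the 9 but all under the signal of 100 set for testing. Both ketone body genes fell (background 26.8% downward). Bdh1 read 3761, 3995 and 3690.0 with MC, 2099, 2537 and 2368 with VPA and 4163, 3939.7 and 3862 with VPM. The VPA arrays lay below the other 6, and the log2 change was -0.71 ± 0.07 (SE, limma adjusted p = 7.85e-06). Oxct1, the transferase that lets tissues outside the liver use acetoacetate, fell by 0.14 (limma adjusted p = 0.0415) and lost the call in 5 of the 6 fits that left out 1 array, with an adjusted p of up to 0.105.

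**Figure D2:**
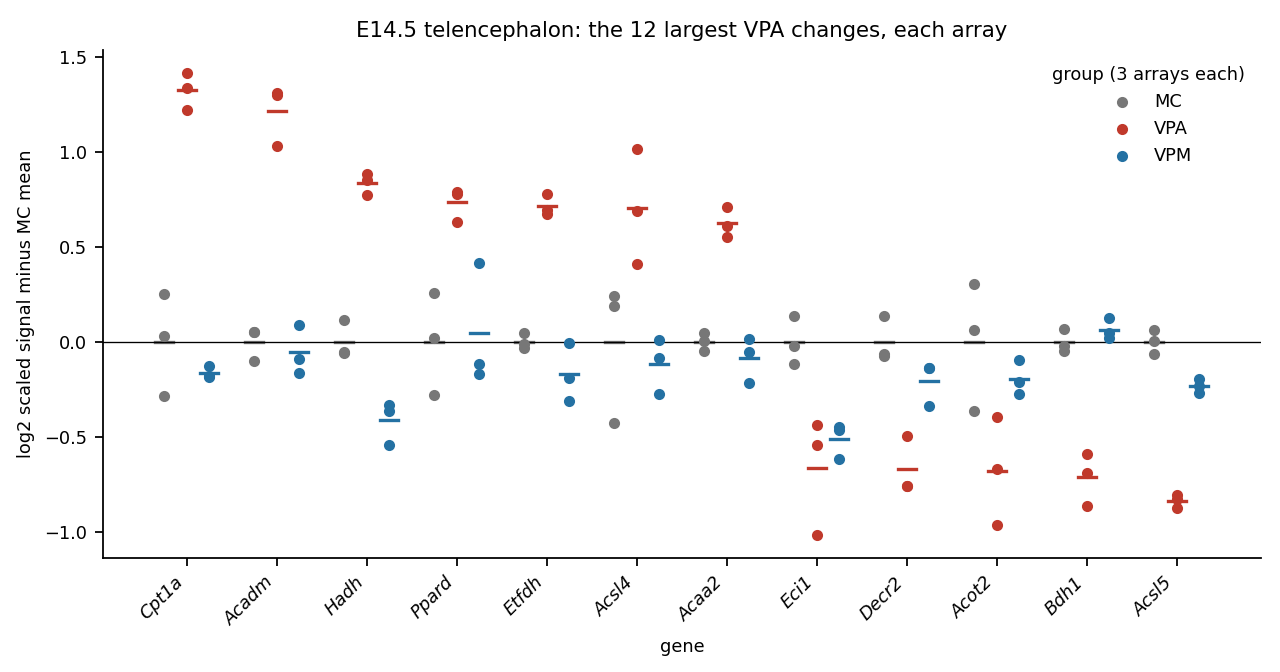
Scaled log2 signal of each array minus the mean of the MC arrays for the 12 members with the largest VPA change at E14.5 (points are arrays, 3 per group, and lines are group means). The 3 VPA arrays sit above the MC arrays in 7 genes and below them in 5, while the VPM arrays of 8 genes overlap the MC range and those of Hadh, Eci1, Decr2 and Acsl5 lie below it.

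For 9 other tested probe sets of the members that changed, all 9 log2 changes had the same sign and 6 passed. The summed signal of markers of other cell types moved with the same groups: 10 astrocyte markers summed to 7929 to 8713 with VPA and 10728 to 11679 with MC, 9 radial glia markers to 43749 to 45299 and 49353 to 52393, and 7 neuronal markers to 45528 to 45932 and 49464 to 50649.8. Endothelial and pericyte markers summed to 3257 to 3579 with VPA and 3896 to 4329.6 with MC, and red cell markers to 6559.9 to 9988 and 10955 to 12914. The hippocampal marker list summed to 14891 to 19744 with VPA and 23122 to 25218 with MC, and the cortical list to 2164 to 2207 and 3559 to 3932. The hippocampal list also read 23054 to 24969 in the E18.5 forebrain with MC, so it does not mark that region alone in embryos. It shares Neurod6 with the neuronal list, and the astrocyte and radial glia lists share Slc1a3. General telencephalic markers summed to 11007 to 12088 and 12359.6 to 14548, and meningeal ones to 561 to 585 and 633 to 744. Choroid plexus markers were low in both, at 375 to 459.7 and 235 to 355, with 3 and 4 of the 8 under the floor on all arrays of the group. Of the 10 astrocyte markers, 2 were under the floor on all arrays of the group with MC and 2 with VPA. The part of these markers in the members' changes was not tested. In such bulk tissue fewer cells of a type and less RNA of the marker genes per cell cannot be told apart.

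The wider pathway was read from 81 further genes, of which 74 matched and 55 were tested at E14.5. With VPA 31 changed (56.4%), 16 upward and 15 downward, where 53.8% of all genes tested did (27% and 26.8%), and their median log2 change was 0.12. Ppargc1b, a coactivator of PPAR and of mitochondrial genes, read 90.5, 52.4 and 65.2 with MC and 217, 231 and 226 with VPA, and it entered the test only through its VPA arrays, since every MC array lay under the limit of 100. Its log2 change is thus not given. Plin2, the lipid droplet coat protein and a known PPAR target, read 1156, 1073 and 1066 with MC and 431, 451 and 464 with VPA, a fall of 1.29 on the log2 scale. The thioesterase Acot6 fell by 1.19 on the same scale, and over 16 alternative fits its log2 change ran from -1.28 to -0.65 and passed in each. Acsf3, a mitochondrial malonyl-CoA synthetase, read 233, 211 and 249.7 with MC and 92.9, 55.8 and 77.4 with VPA, so that all its VPA arrays were under 100. Of the 14 tested PPAR factors and targets 5 rose and 4 fell (64.3%), and of the 18 further genes of mitochondrial oxidation and carnitine 4 rose and 4 fell (44.4%).

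The 250 bases upstream of the transcription start are shown for Cpt1a and Acadm, the genes that rose most and that both hold a nuclear receptor half-site, for Hadh, which rose and holds GC boxes, and for Acsl5, which fell and holds a CCAAT box. The sequences are RefSeq's on build GRCm38.p6, 5′ to 3′ on the gene's strand, and capitals mark the motif on either strand. Cpt1a lies on chr19:3323051-3323300 (+), Acadm on chr3:153944644-153944893 (-), Hadh on chr3:131272102-131272351 (-) and Acsl5 on chr19:55253119-55253368 (+).
Cpt1a: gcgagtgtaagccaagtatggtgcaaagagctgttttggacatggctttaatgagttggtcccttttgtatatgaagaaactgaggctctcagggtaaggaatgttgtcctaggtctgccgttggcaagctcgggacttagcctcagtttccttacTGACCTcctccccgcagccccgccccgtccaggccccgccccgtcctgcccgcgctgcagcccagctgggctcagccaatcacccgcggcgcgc
Acadm: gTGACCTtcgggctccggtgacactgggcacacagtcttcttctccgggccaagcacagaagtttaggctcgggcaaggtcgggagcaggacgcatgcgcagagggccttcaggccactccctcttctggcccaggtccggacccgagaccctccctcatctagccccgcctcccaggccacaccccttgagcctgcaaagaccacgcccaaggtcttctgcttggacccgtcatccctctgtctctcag
Hadh: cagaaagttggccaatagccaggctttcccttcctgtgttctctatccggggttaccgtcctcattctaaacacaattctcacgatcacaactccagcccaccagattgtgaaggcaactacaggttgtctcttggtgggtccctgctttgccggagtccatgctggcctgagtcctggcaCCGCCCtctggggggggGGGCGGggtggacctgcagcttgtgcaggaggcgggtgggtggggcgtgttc
Acsl5: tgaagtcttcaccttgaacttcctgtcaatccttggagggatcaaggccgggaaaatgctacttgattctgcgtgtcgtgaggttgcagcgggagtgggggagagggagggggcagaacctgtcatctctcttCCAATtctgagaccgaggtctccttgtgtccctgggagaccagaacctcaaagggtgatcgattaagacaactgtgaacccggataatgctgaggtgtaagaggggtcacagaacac
The half-site AGGTCA, searched on both strands, was found in 6 of the 33 members with a window (Acadm, Acadvl, Acsl6, Cpt1a, Cpt1c and Echs1), against 14% of 32851 windows of all genes. With VPA, 2 of these 6 rose, 2 fell and 2 did not pass. The full direct repeat AGGTCANAGGTCA, to which PPAR dimers bind and which contains the half-site, was in 0 of 33 and in 0.0335% of all windows. The GC box GGGCGG was in 23 of 33 members and 32.7% of all windows, and CCAAT was in 16 of 33 and 33.8%. Members were counted once per gene and the background once per window, and the background was not matched to the genes tested. The shares are thus not a like comparison. These are matches of letters in 1 window per start site and do not show binding.

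Valpromide was compared at the same dose and hour, to ask whether its amide form gave the same changes. Against MC, 4 of 33 members changed with VPM at E14.5 (12.1%), 1 upward and 3 downward, where 11.6% of all genes tested did (5.65% upward, 5.91% downward). Hadh fell by 0.41 ± 0.07 (SE, limma adjusted p = 0.00478), Eci1 by 0.51 (adjusted p = 0.0363) and Etfa by 0.23 (adjusted p = 0.0226), while the thioesterase Acot7, the brain acyl-CoA hydrolase, rose by 0.33 (adjusted p = 0.0409). Etfa read 2506, 2638 and 2377 with MC, 2829, 2981 and 2908 with VPA and 2141, 2138 and 2142 with VPM, and Acot7 read 2252, 2242 and 1891 with MC, 2187, 2565 and 2328 with VPA and 2403, 2670.1 and 2960.3 with VPM. Hadh and Etfa thus lay above MC with VPA and below MC with VPM. Leaving out any 1 of the 6 arrays left 1 or 2 of the 4 calls, and Hadh kept its call each time. VPM replicate 3 had choroid plexus markers summing to 20596, against 235 to 469 on the other 8 arrays of that age, and without it 1 member changed. Red cell markers summed to 2560.1 to 3184 with VPM and 10955 to 12914 with MC, neuronal markers to 56657 to 59323 and 49464 to 50649.8, astrocyte markers to 9446 to 9473 and 10728 to 11679 and radial glia markers to 43475 to 46293 and 49353 to 52393. Endothelial and pericyte markers summed to 4481 to 5233 with VPM and 3896 to 4329.6 with MC, microglia markers to 1644 to 1778 and 1332 to 1485 and oligodendrocyte markers to 923 to 1288 and 511 to 804. In these 7 lists the groups did not overlap, and their part in the VPM results was not tested.

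Set directly against VPM, 24 of 33 members differed with VPA (72.7%, background 54.5%), 15 higher and 9 lower (background 27.5% and 27%; 15 and 4 on the values as deposited), and 19 differed without VPM replicate 3. The largest differences were in Cpt1a, 1.49 ± 0.11 on the log2 scale (SE, limma adjusted p = 1.15e-06), Acadm, 1.27 ± 0.09 (adjusted p = 8.45e-07), and Hadh, 1.25 ± 0.07 (adjusted p = 2.03e-07). Etfdh (0.88), Acsl4 (0.82), Acaa2 (0.71) and Ppard (0.69) were higher with VPA, and Bdh1 (-0.78) was lower. Over the alternatives Etfdh ran from 0.44 to 0.96 and Ppard from 0.34 to 0.87, and both kept the call. Of the 24, 8 had not passed against MC. Acadl (0.29), Acads (0.49), Hadhb (0.64), Eci2 (0.24) and Acaa1a (0.48) were higher with VPA than with VPM, and Cpt1c (-0.28), Acadsb (-0.21) and Acot1 (-0.28) lower. Acads and Hadhb kept the call under every alternative tried. Of the 16 alternatives, 10 took it from Acaa1a, 9 from Acadsb, 7 from Cpt1c, 6 from Eci2 and 5 each from Acadl and Acot1, and the mean over the probe sets of Acaa1a was 0.14 (limma adjusted p = 0.642). Of the 9 members that did not pass between the compounds, the 95% interval of the difference lay within 1.5-fold in either direction for 7, among them Cpt2 (-0.47 to 0.20), Eci1 (-0.46 to 0.15) and Decr1 (-0.49 to 0.10). It reached past 1.5-fold for Acot2 (-0.92 to -0.04) and Crat (-0.05 to 1.41). The marker sums of astrocytes, neurons, red cells, microglia, meninges, endothelium and pericytes, hippocampus and cortex did not overlap between VPA and VPM, and their part was not tested. Of the further pathway genes, 10 of 55 changed with VPM against MC (18.2%, background 11.6%), 4 upward and 6 downward. Between the compounds 33 of 55 differed (60%, background 54.5%), 17 higher with VPA and 16 lower. Ppargc1b read 47.9, 20.1 and 64.5 with VPM, again under 100 on every array, while Acsf3 read 207, 215 and 183 and was under 100 only with VPA. Abcd2, a peroxisomal fatty acid transporter, fell by 0.69 with VPM, and Rxrg, a retinoid X receptor, read 362, 474 and 477 with VPM and 354, 135 and 213 with MC, a log2 change of 1.00 that passed (limma adjusted p = 0.0427) but was lost under 11 of 16 alternatives and was 0.66 without MC replicate 2 (adjusted p = 0.119).

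The same comparisons were made 4 days after the last dose. In the E18.5 forebrain 1 of 32 members tested changed with VPA against MC (3.12%, background 2.16%, and 1.06% downward). Acot1, a cytosolic acyl-CoA thioesterase, read 1601, 1585 and 1595 with MC, 1343, 1368 and 1344 with VPA and 1603, 1616 and 1452 with VPM. The VPA arrays were the lowest, with a log2 change against MC of -0.24 ± 0.05 (SE, limma adjusted p = 0.0371), and the call was lost when any of the 6 arrays was left out (adjusted p of 0.0824 to 0.134). Against VPM, Hadhb was lower with VPA by 0.38 ± 0.07 (limma adjusted p = 0.0428, 1 of 32, background 0.53%, and 0.295% downward), with 828, 912 and 793 on the VPA arrays and 1125, 1155 and 1021 on the VPM arrays, and this call too was lost when any array was left out (0.0527 to 0.159), and the mean over its probe sets was -0.07. With VPM against MC 0 of 32 changed, and 0 had an unadjusted limma p under 0.05 (background 0% called). Choroid plexus markers moved with the VPA arrays of this tissue, at 651 to 4978 against 18181 to 26025 with MC and 20592 to 24607 with VPM, as did red cell markers (228 to 276 with VPA and 439.8 to 601 with MC) and oligodendrocyte markers (4694 to 5047 and 3545 to 3898), and their part in both results was not tested. Of the further pathway genes 1 of 56 changed in each, Aacs, which makes acetoacetyl-CoA in the cytosol (0.26 against MC), and the thioesterase Acot9 (0.29 against VPM).

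In the E18.5 hippocampus 0 of 32 members passed in any of the 3 comparisons, where 0%, 0.00867% and 0% of all genes did. The unadjusted limma p was under 0.05 for 8 members with VPA against MC, 6 with VPM against MC and 5 with VPA against VPM. No share of all genes is given at that unadjusted limit, so these counts have no background beside them. The smallest p-values against MC fell on Acot2 and Crat with both compounds, comparisons that share the MC arrays. Acot2 read 581, 442 and 404 with MC, 335, 339 and 302 with VPA and 311, 369 and 325 with VPM, log2 changes of -0.53 and -0.49 (limma adjusted p = 0.198 and 0.359). Crat read 301, 346 and 422 with MC, 224, 296 and 171 with VPA and 188, 262 and 218 with VPM, log2 changes of -0.65 and -0.68 (adjusted p = 0.244 and 0.37). Neither passed. Between the compounds the smallest p-values were those of Acsl4 (0.45, adjusted p = 0.137) and Etfb (-0.20, adjusted p = 0.239). Choroid plexus markers in this tissue were uneven within groups, at 1741 to 30693 with MC, 23053 to 27714 with VPA and 1104 to 28131 with VPM. Radial glia (38224 to 40329 with VPA, 42104 to 45463 with MC) and red cell sums (302 to 381, 403 to 646) did not overlap. The same held for oligodendrocyte (4341 to 4891, 2768 to 3945) and meningeal sums (11914 to 14984, 4966 to 11609). It also held for the hippocampal list (26185 to 29714, 30399 to 31741). Astrocyte markers summed to 15848 to 17048 with VPM and 18749 to 20264 with MC. The part of these markers was not tested.

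**Figure D3:**
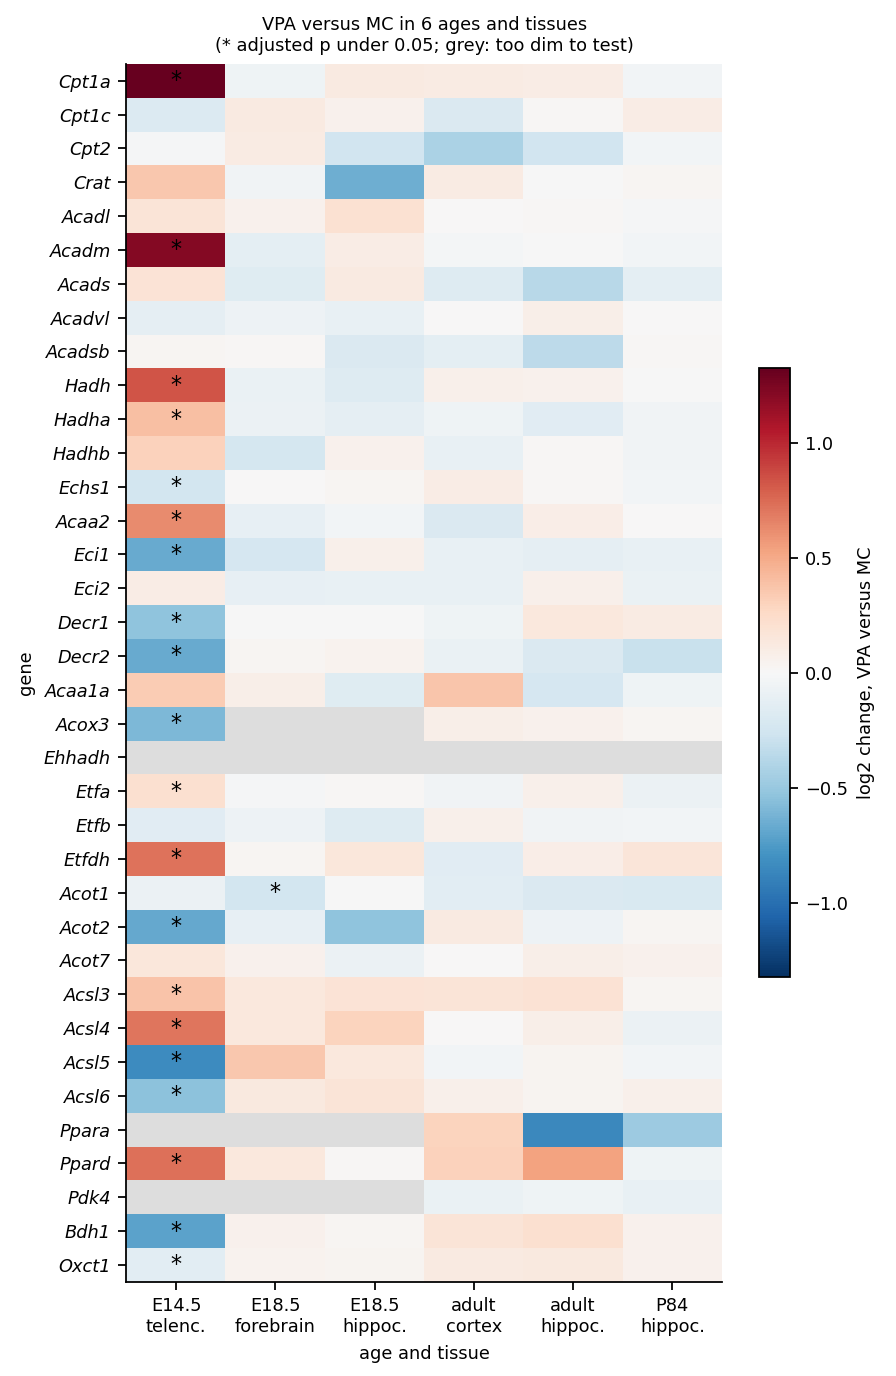
Log2 change with VPA against MC for the 36 members (rows) in 6 ages and tissues (columns), with red for higher and blue for lower signal with VPA, a star for an adjusted p under 0.05 and grey for members too dim to test. Stars fill 20 cells of the E14.5 column, 1 of the E18.5 forebrain column (Acot1) and 0 of the other 4.

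Whether the VPA effect itself differed between the E14.5 telencephalon and the E18.5 forebrain was tested as a difference of the 2 effects. It differed in 16 of 33 members (48.5%, background 39.1%), 8 in each direction (background 20.4% upward and 18.7% downward). For Cpt1a the effect was 1.32 at E14.5 and -0.06 at E18.5, where the arrays read 515, 625 and 641 with MC and 499, 545 and 668 with VPA. For Acadm it was 1.21 and -0.13, with 1149, 1096 and 1251 with MC and 1023, 980.3 and 1196 with VPA at E18.5. For Acsl5 it was -0.83 and 0.36, and the E18.5 arrays read 706, 672 and 611 with MC and 901, 820.2 and 822 with VPA, which did not pass by itself (limma adjusted p = 0.0553). Hadh, Bdh1 and Etfdh differed by 0.92, -0.77 and 0.69, while Acsl4 (0.56) and Ppard (0.59) were not shown to differ. The difference of Etfdh ran from 0.34 to 0.72 over 21 alternatives, of which 1 took its call. On the values as deposited 6 of 33 members differed. Acox3 is counted among the 16 but was too dim to test by itself in the E18.5 forebrain. Of 57 further pathway genes 26 differed (45.6%, background 39.1%), 12 upward and 14 downward. Nudt7, a peroxisomal hydrolase of coenzyme A, read 55.7, 84.8 and 70.6 with MC and 169, 119.6 and 173 with VPA at E14.5 and 80.4, 109 and 102 and 51.3, 72.6 and 54.4 at E18.5, so that 2 of the 4 groups lay wholly under 100. Stage, tissue and time since the last dose cannot be told apart in this contrast.

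In adult offspring no member passed in any comparison. Background shares are those at adjusted p under 0.05, and no share of all genes is given beside the counts at unadjusted p. In the hippocampus at 12 to 13 weeks 0 of 35 members tested changed with VPA against MC (background 0%), 6 had an unadjusted limma p under 0.05, and the 95% intervals of 30 lay within a 1.5-fold change in either direction. The smallest p-values were those of Acsl3, which read 2585, 2805 and 2837 with MC and 2998, 3159 and 3203 with VPA (log2 change 0.19, adjusted p = 0.357), and of Acads, which read 414, 410.4 and 472 with MC and 371, 291 and 343 with VPA (-0.37, adjusted p = 0.383). Ppara, chosen here for its value, had the change of largest size, -0.85 with a 95% interval of -1.69 to -0.02, from MC arrays at 85.2, 198 and 97.0 and VPA arrays at 90.9, 82.6 and 36.9 that overlapped. In the cortex 0 of 35 passed (background 0.00735%), 5 had an unadjusted p under 0.05 and 32 intervals lay within 1.5-fold. Acaa1a read 889, 925 and 950.0 with MC, 1274, 1136 and 1155 with VPA and 853, 880.0 and 854 with VPA+RW, a log2 change with VPA of 0.37 (adjusted p = 0.195) and with running in VPA offspring of -0.46 (adjusted p = 0.2). Bdh1 changed by 0.17 with VPA (adjusted p = 0.384). At P84, 0 of 35 passed (background 0%), 1 had an unadjusted p under 0.05 and 34 intervals lay within 1.5-fold. Decr2 read 821, 852, 658 and 940.0 with MC and 686, 559, 651 and 761 with VPA (-0.30, adjusted p = 0.902), and Etfdh changed by 0.16 (adjusted p = 0.902).

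Running was compared in the same way, since exercise is known to raise fatty acid use in muscle and liver. Here too the background shares are at adjusted p under 0.05, and the counts at unadjusted p have none. In the hippocampus 0 of 35 members passed with running in MC offspring, in VPA offspring or in the difference of the 2 effects (background 0% in each), and 5, 4 and 4 had an unadjusted limma p under 0.05. Acot7 read 5101, 4820.2 and 5173 without a wheel and 5678, 5405 and 5551 with one in MC offspring, a log2 change of 0.14 (adjusted p = 0.398), and Hadha changed by 0.24 with running in VPA offspring (adjusted p = 0.391). For Acsl3 the running effect was 0.16 in MC and -0.16 in VPA offspring, a difference of -0.33 (adjusted p = 0.893). In the cortex 0 of 35 passed in the same 3 comparisons (background 0.0147%, 0% and 0%), with 8, 3 and 2 at an unadjusted limma p under 0.05. Oxct1 read 7723, 7709 and 6813 without a wheel and 8715, 8818 and 8141 with one in MC offspring (0.21, adjusted p = 0.207), and Acaa2 read 399, 406 and 439 without and 319.5, 341 and 324 with one (-0.34, adjusted p = 0.213). The difference of the running effects had its smallest p-values for Acaa2 (0.38, adjusted p = 0.764) and Acaa1a (-0.31, adjusted p = 0.764). Of the further pathway genes 0 passed in the adult or P84 comparisons, where 60 to 62 were tested and 2 to 7 had an unadjusted limma p under 0.05.

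The MC arrays alone showed how these genes differ between ages and tissues without drug. Age and the set of arrays cannot be told apart here. Values as deposited moved the median of all genes by up to 0.57 on the log2 scale, so each split is given on both scales. Between the E14.5 telencephalon and the E18.5 forebrain 26 of 35 members differed (74.3%, background 54.1%), 13 higher and 13 lower at E18.5 (background 30.2% and 23.9%; 17 and 3 as deposited, where the median of all genes was 0.36). Acsl4 read 309.9, 195 and 299 at E14.5 and 923, 849 and 812 in the forebrain at E18.5, a log2 difference of 1.71 ± 0.12 (SE, limma adjusted p = 8.69e-10). Acot7 read 2252, 2242 and 1891 at E14.5 and 4484, 4723 and 5065 at E18.5, a difference of 1.16. Hadh read 2586, 2919 and 2599 at E14.5 and 1146, 1354 and 1286 at E18.5, a difference of -1.10. Eci1 (-1.02), Acads (-0.78) and Hadha (-0.72) were also lower at E18.5 and Acsl5 (0.86) higher, and of these Acads and Hadha did not pass on the values as deposited. By role, all 4 synthetases and all 3 thioesterases were higher at E18.5, and all 3 electron transfer flavoprotein genes were lower. Acot2 (0.59) lost its call under 5 of 15 alternatives, among them quantile normalization (0.36, limma adjusted p = 0.121) and the fit without E14.5 MC replicate 1 (0.41, adjusted p = 0.0785). As deposited the thioesterases and synthetases kept their calls, while Etfa (-0.23) and Etfb (-0.25) did not pass and Etfdh was at 0.09. Acox3, lower at E18.5, and Pdk4, higher, are counted among the 26 although every array of 1 or both groups lay under 100, 78.4, 79.4 and 67.8 for Acox3 at E18.5 and 36.2, 35.6 and 41.0 and 50.6, 67.4 and 67.1 for Pdk4 at both ages. Choroid plexus markers summed to 235 to 355 at E14.5 and 18181 to 26025 at E18.5, red cell markers to 10955 to 12914 and 439.8 to 601 and radial glia markers to 49353 to 52393 and 32516 to 35093. Neuronal markers summed to 49464 to 50649.8 and 62592 to 68846, oligodendrocyte markers to 511 to 804 and 3545 to 3898, astrocyte markers to 10728 to 11679 and 11693 to 13116, endothelial and pericyte markers to 3896 to 4329.6 and 5884 to 7324 and microglia markers to 1332 to 1485 and 1974 to 2249.6. None of these 8 lists overlapped between the ages, and their part in the members' differences was not tested. Of the further pathway genes 33 of 62 differed (53.2%), 21 higher and 12 lower at E18.5, among them Fabp3, a fatty acid binding protein (1.85), and Abcd2 (-2.28).

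The late embryo and the adult were compared in hippocampus and in cortex. Between the E18.5 and the P84 hippocampus 30 of 35 members differed (85.7%, background 82.8%), 17 higher and 13 lower in the adult (background 45.2% and 37.7%; 20 and 5 as deposited, median of all genes 0.57). Acot1 read 2173, 1836 and 2009 at E18.5 and 421, 338, 359.9 and 302 at P84, a log2 difference of -2.50 ± 0.10 (SE, limma adjusted p = 3.46e-14). Pdk4, which restrains pyruvate dehydrogenase, read 60.4, 38.4 and 51.8 at E18.5 and 283, 225, 250.2 and 246 at P84. All its E18.5 arrays lay under 100, as did those of Acox3 and Ppara. These 3 are counted among the 17 higher but entered the test only through other ages, and their differences are not given. Cpt1c read 488, 491 and 493 at E18.5 and 1866, 1958, 2000.1 and 2065 at P84, a difference of 2.01 ± 0.07 (adjusted p = 6.75e-15), while Cpt1a differed by 0.02 and did not pass, though its other probe sets gave 0.72 and 1.60. The synthetases Acsl6, Acsl5 and Acsl4 were higher by 1.91, 1.85 and 1.71, as was Acaa1a (1.35). Bdh1 was lower by 1.25, with 3871 to 4159.6 at E18.5 and 1599 to 1798 at P84, and Eci2 was lower by 1.30. Probe sets of 2 members passed in opposite directions: Hadh, at -0.61 on the probe set used, 1.34 on another and 0.15 as their mean, and Oxct1, at 0.23 on the probe set used and at -0.52, 1.60 and 2.57 on its other probe sets.

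The cortex gave a like set of values against the E18.5 forebrain, with 26 of 35 members differing (74.3%, background 80.9%), 18 higher and 8 lower in the adult (background 44.8% and 36.1%; 18 and 6 as deposited). Acot1 was lower by 2.83 and Bdh1 by 1.37, while Crat (1.66), Acsl5 (1.65), Cpt1c (1.62), Acsl4 (1.49) and Acsl6 (1.40) were higher. Crat read 191, 303 and 243 in the forebrain and 673, 789 and 829.7 in the adult cortex. Pdk4 read 50.6, 67.4 and 67.1 in the forebrain and 380.4, 371 and 359 in the adult cortex, and it, Acox3 and Ppara, all counted among the 18, were under 100 on every forebrain array. Astrocyte markers summed to 18749 to 20264 in the E18.5 hippocampus, 11693 to 13116 in the E18.5 forebrain, 50788 to 58582 at P84 and 44376 to 50192 in the adult cortex, and oligodendrocyte markers to 2768 to 3945, 3545 to 3898, 27122 to 34377 and 27068 to 31461. Radial glia markers were lower in the adult, at 42104 to 45463, 32516 to 35093, 17933 to 20413 and 12866 to 13338 in the same 4 groups, and so were neuronal markers, at 66448 to 68087, 62592 to 68846, 48149 to 56276 and 46208 to 51189. Microglia markers were higher in the adult, at 2664 to 3057, 1974 to 2249.6, 8558 to 9274 and 9381 to 10016. Choroid plexus markers summed to 18181 to 26025 in the forebrain and 1004 to 1076 in the adult cortex, and those of the hippocampal groups overlapped. Their part in the members' differences was not tested. Of the 62 further pathway genes tested, 49 differed between the hippocampal groups (79%, 29 higher in the adult and 20 lower) and 47 between forebrain and cortex (75.8%, 28 higher and 19 lower). Ppargc1b and Acot11 were higher in the adult in both tissues, by log2 differences that depended on the processing. Over the alternatives Ppargc1b ran from 3.31 to 4.21 in hippocampus and from 2.73 to 3.18 in cortex. Acot11 ran from 1.44 to 3.33 and from 1.47 to 2.89. Fabp7, the fatty acid binding protein of radial glia, was lower (-3.53 and -3.51).

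**Figure D4:**
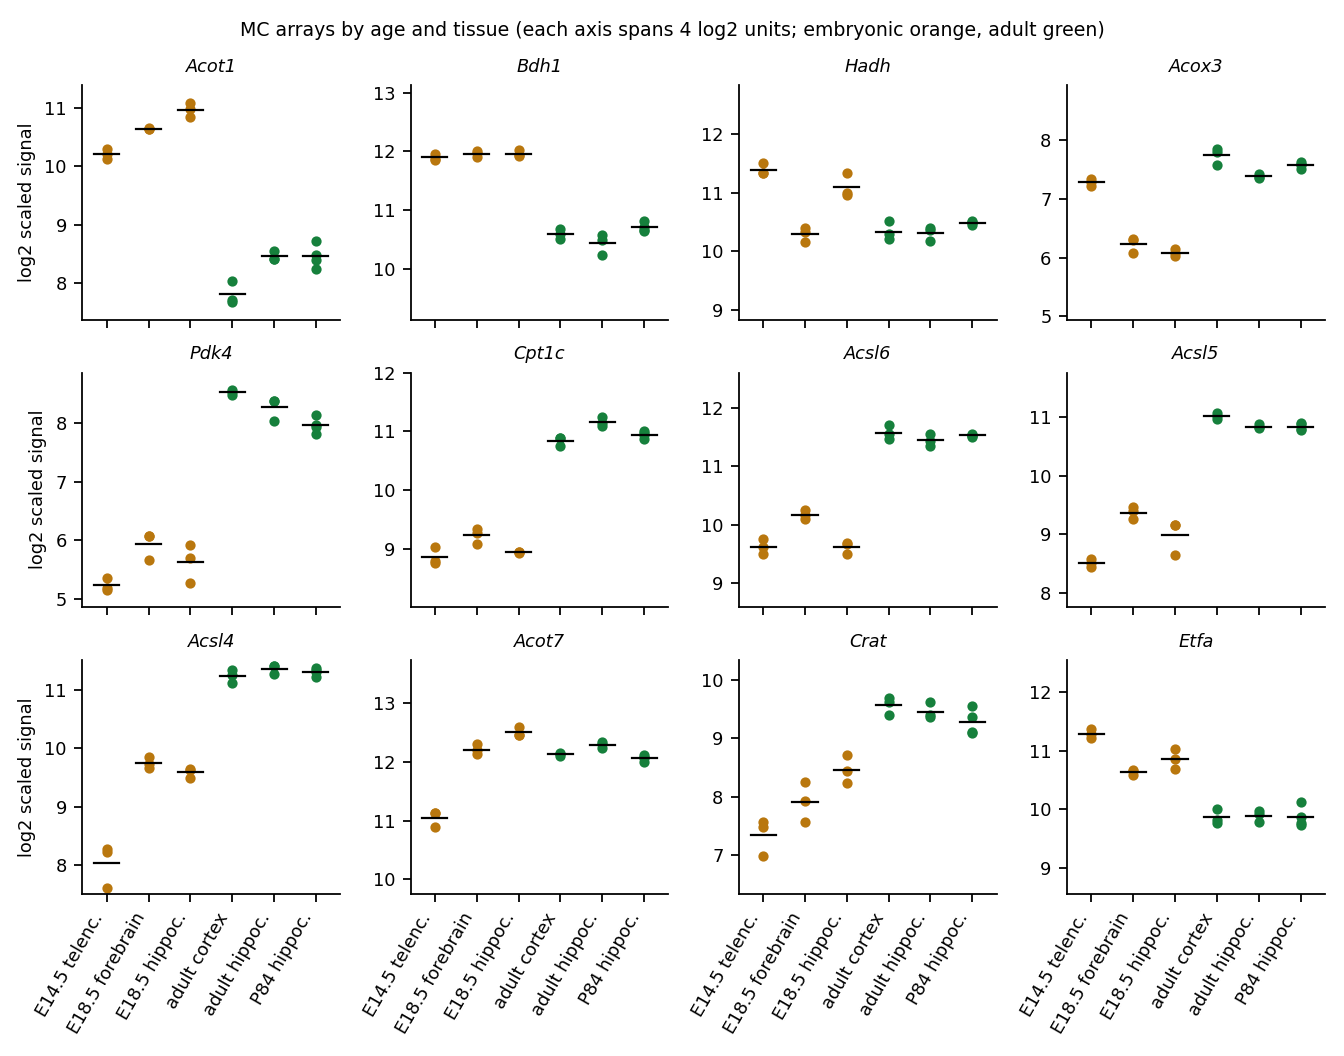
Scaled log2 signal of 12 members on the MC arrays by age and tissue (points are arrays, 3 per group and 4 at P84, lines are means, and each axis spans 4 log2 units so that slopes can be compared). Acot1 and Bdh1 are lower in the adult than in the embryonic groups, Pdk4, Cpt1c and Acsl6 are higher, and Hadh and Acox3 are lower in the E18.5 forebrain than at E14.5.

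The tissues were also compared within an age. At E18.5, 16 of 35 members differed between hippocampus and forebrain (45.7%, background 20.6%), 13 higher and 3 lower in hippocampus (background 9.8% and 10.8%), where as deposited 4 differed, 2 in each direction, and without forebrain replicate 1 there were 7. The largest were Acot2 (0.90), Hadh (0.80, limma adjusted p = 9.95e-06), Cpt2 (0.57) and Acsl6 (-0.56), and Hadh read 2586, 1995 and 2056 in hippocampus and 1146, 1354 and 1286 in forebrain. Xist read 56.1, 69.3 and 65.3 on the hippocampal arrays and 7507, 76.0 and 8229 on the forebrain arrays. Sex was thus uneven between these groups, and inferred sex was not fitted as a covariate here. Choroid plexus markers ran from 1741 to 30693 and from 18181 to 26025 in these groups. Astrocyte markers summed to 18749 to 20264 in hippocampus and 11693 to 13116 in forebrain, radial glia markers to 42104 to 45463 and 32516 to 35093, microglia markers to 2664 to 3057 and 1974 to 2249.6 and endothelial and pericyte markers to 8095 to 9109.6 and 5884 to 7324, all higher in hippocampus on every array. The part of these markers was not tested. Between adult hippocampus and cortex 6 of 35 differed (17.1%, background 16.4%), 4 higher and 2 lower in hippocampus (background 7.72% and 8.66%). Acot2 was higher in hippocampus by 0.97, with 591, 626 and 483 against 348, 297 and 231, and Acot1 by 0.66 (limma adjusted p = 0.000894 and 0.000232). Cpt1c (0.32) and Etfb (0.32) were higher and Ppard (-0.60) and Decr1 (-0.31) lower, with limma adjusted p of 0.00761, 0.0251, 0.0279 and 0.0485. Ppard was -0.37 without cortex replicate 2 (adjusted p = 0.175), and Etfb and Decr1 each lost the call in 5 of the 6 fits that left out 1 array. Without cortex replicate 2 there were 3 calls, and as deposited 1. Astrocyte markers summed to 50748 to 52327 in adult hippocampus and 44376 to 50192 in cortex, and radial glia markers to 16203 to 16826 and 12866 to 13338, and their part was not tested.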

How the data were processed

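RNA from 59 brain samples was hybridised to Affymetrix Mouse 430 2.0 arrays. The deposited values are linear signal intensity per probe set, made by the authors with GCOS, whose version is not given in the sources used here, per the submitters' processing notes; how they scaled the arrays is likewise not given, and trimmed means ran from 197.6 to 419.4.

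Signals were rescaled so that the mean of every array, with 2% trimmed at either end, was 500, then floored at 32 and put on the log2 scale. Of 45101 probe sets, 34958 had 1 gene symbol, 932 several and 9211 none. Of the 34958, 34754 took their RefSeq name and the others kept the symbol of the platform, which gave 18194 genes. A gene was read from the probe set with the highest mean scaled signal over all 59 arrays and was tested where it reached 100 on at least 3 arrays (4 at P84). Changes were fitted with limma 3.58.1 (trended eBayes, R 4.3.3), within each age and tissue, with Benjamini-Hochberg adjustment over all genes tested and a threshold of 0.05. The comparison of ages used the 19 MC arrays in 6 groups. The steps were tested on simulated data. The number of arrays limits the precision. The correlation of arrays within groups was 0.972 to 0.994, and 0 pairs of arrays held identical values.

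Members and lists were chosen with earlier results of these data known. The rule for named genes gave array values for up to 8 changed members of largest log2 change per comparison (12 for VPA against MC at E14.5), the 2 of smallest p where none changed, and up to 4 changed further pathway genes, with other members named by count, range or change. Promoters came from RefSeq (GRCm38.p6), 250 bases upstream, for 33 members. The closing section gives the alternatives tried: the values as deposited, quantile normalization, an offset of 32 in place of the floor, no filter or one at 200, moderation without a trend, the mean over probe sets, a block for the replicate number, a fit of only the 2 groups compared, inferred sex as a covariate, and each array left out. The sex covariate was fitted only in the embryonic drug comparisons, not in those between ages or tissues of MC arrays.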

Additional observations from a re-analysis of the deposited data

Results flagged for a closer look

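The VPA effect differed between the E14.5 telencephalon and the E18.5 forebrain in 16 members (limma, adjusted p under 0.05), given as the log2 effect at E14.5 minus that at E18.5. It differed in 39.1% of all 11772 genes tested, and the share of the members is given with this contrast above. Stage, tissue and time since the last dose cannot be told apart in it. It was more positive at E14.5 for Cpt1a (1.38), Acadm (1.34), Hadh (0.92), Acaa2 (0.74), Etfdh (0.69), Hadhb (0.54), Hadha (0.47) and Etfa (0.23). It was more negative for Acsl5 (-1.19), Acox3 (-1.03), Bdh1 (-0.77), Decr2 (-0.70), Acsl6 (-0.67), Decr1 (-0.52), Echs1 (-0.25) and Oxct1 (-0.18). Acox3 was too dim to test in the E18.5 forebrain and entered this test only through its E14.5 arrays. Of 21 alternatives, 12 took the call from Oxct1, 10 from Hadhb, which was 0.34 with the mean over its probe sets (limma adjusted p = 0.0983) and 0.36 without E14.5 VPA replicate 1 (0.0915), and 6 from Etfa. Etfdh ran from 0.34 to 0.72 over the same alternatives.

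In 3 of 72 groups of 4 arrays, 1 array lay far from the other 3, where chance alone gives about 1 in 20. The thiolase Acaa2 read 639.8 on P84 MC replicate 1, against at most 436.5 on the other MC arrays. The isomerase Eci2 read 805.2 on the same array, against at most 720.9. The thioesterase Acot7 read 4264 on P84 VPA replicate 4, against at least 4541 on the other VPA arrays. Choroid plexus markers summed to 19928 on P84 MC replicate 1 and 17836 on P84 VPA replicate 4, and their part in these values was not tested.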

How the results depend on the processing

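Of 3326 values of named genes under the alternatives, 2976 kept direction and side of the threshold, 342 lost a call and 8 reversed, and 353 of 387 counts stayed within 1.5 times. The 353 include counts of 0 that stayed 0, as in the adult comparisons of VPA and running, so they overstate how stable the other counts were. For VPM against MC at E14.5 the count of members called, 4, was 2 on the values as deposited, 2 with no filter and 1 to 2 with an array left out. In the E18.5 forebrain the 1 call of VPA against MC became 0 on the values as deposited, with no filter, without a trend, with inferred sex, and with any array left out (0 to 0). The 1 call of VPA against VPM there became 0 on the values as deposited, with no filter, without a trend, with the mean over probe sets, with only the groups compared, and with any array left out (0 to 0). As deposited, E18.5 hippocampus against forebrain gave 4 calls (7 to 13 with an array left out), adult hippocampus against cortex 1 (3 to 5), and the difference of the VPA effects 6. On the values as deposited, E18.5 forebrain against E14.5 telencephalon reversed for Echs1 (0.038), Acadvl (0.040), Etfdh (0.095) and Decr1 (0.103), and P84 against E18.5 hippocampus for Acot7 (0.013), Etfdh (0.125) and Acadvl (0.23), and Hadh reversed there with the mean over probe sets (0.15). The cause was not tested. With the replicate number as a block the counts were 20, 3 and 23 at E14.5 for VPA against MC, VPM against MC and VPA against VPM, and 16 for the difference of the VPA effects. Within an age and tissue, same-numbered arrays of different groups correlated between -0.283 and 0.383 in their deviations. With so few arrays this does not settle whether the numbers pair samples. Arrays of different tissues were not compared in this way, and the main comparisons of tissues were fitted unpaired. Low signal limits Ehhadh, Ppara and Pdk4 at E14.5.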
